A study of Caenorhabditis elegans with 2 samples.

Results

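The basic helix-loop-helix (bHLH) transcription factor genes of Caenorhabditis elegans were examined for peaks of the zinc-finger protein HAM-2 in embryos. Members were all protein-coding genes of the WBcel235 annotation whose name starts with hlh-, mxl-, mdl- or mml-, which gave 30 of 19973 genes on the nuclear chromosomes. They comprise the 5 genes of the Mad/Max-type network (mdl-1, mml-1, mxl-1, mxl-2 and mxl-3), hlh-2, and 24 other hlh genes. The data are chromatin immunoprecipitation sequencing (ChIP-seq) peak lists of 1 group with 2 biological replicates, numbered 6 and 7 by the submitters. Worms of strain OP639, a single transgenic line, carry the transgene wgIs639, in which ham-2 is joined to TY1, EGFP and 3xFLAG tags and a working unc-119(+) copy is included, and their own unc-119 gene has the allele tm4063. Both libraries share this genotype, and the tagged copy is an addition to whatever endogenous ham-2 the strain keeps. Whole embryos of mixed stage and mixed sex, 3 hours of age by label, were collected by bleaching, and the tagged protein was precipitated with an antibody against GFP. A peak present in few cells of the embryo can be diluted in such chromatin. There is no second condition, so every value is a description and no test between conditions was possible.

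HAM-2 is known for its part in the HSN motor neurons, which drive egg laying. A bHLH protein binds DNA as a dimer, with a basic stretch of each partner reading one side of an E-box, whose letters are CANNTG. HLH-2 is the worm's E or Daughterless protein, a common partner of tissue-specific factors such as HLH-8 in mesoderm and HLH-3 in neurons. The Max-type proteins form a separate network that prefers the E-box CACGTG: MXL-1 pairs with the Mad-type repressor MDL-1, and MXL-2 pairs with MML-1, a Mondo-type activator tied to metabolism and lifespan.

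Each gene was given a window from 2000 bp upstream of its annotated 5′ end to its far end. Of the 30 bHLH genes, 2 (6.67%) had a summit of the reproducible set in that window, against 9.00% of all protein-coding genes. These were mdl-1, with the 8th strongest of 1945 reproducible peaks, and hlh-2, with the 121st. Among the 5 network genes 1 had such a summit, and among the 24 other hlh genes 0 did. The share over all members lies near that of all genes, so the count is no result about the list as a whole. The counts within its groups rest on few genes and are likewise read as no result. Within the list, mdl-1 and hlh-2 have the highest signals. The reproducible set holds peaks kept by the submitters at their cutoff for the irreproducible discovery rate (IDR), a measure of how well peak ranks hold between replicates. Its signal values, as the authors' caller gave them, run from 105.3 to 1164 with a median of 152.4. The pooled list was called on both libraries together and includes background.

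The Mad-type repressor gene mdl-1 (WBGene00003163, chromosome X, 6742351 to 6743899, plus strand) had its peak from 6741692 to 6742365 on ce11, with the summit at 6742084. The summit lies 267 bp upstream of the only annotated 5′ end, and the peak's last 15 bp lie inside the gene. Its signal was 889.0 in the pooled list, 582.6 in replicate 6 and 315.2 in replicate 7. It ranked 6th in the list of replicate 6 and 12th in that of replicate 7, so both libraries place it among their strongest peaks. The replicate summits fell 15 bp to the right and 33 bp to the left of the pooled summit. Only 5 of all 19973 genes had a stronger summit in their window, which puts mdl-1 at the 99.97th percentile. At 674 bp the peak is wider than the most common width of 420 bp. No other protein-coding gene had this summit in its window, and no tRNA, snRNA, snoRNA, rRNA or miRNA gene lay within 250 bp of it.

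The bases from 100 bp before to 100 bp after the mdl-1 summit are shown because this is the strongest peak at any bHLH gene (chrX:6741984-6742184, ce11, plus strand). Capitals mark the word TTAGGC, the unit of the worm telomere repeat, which starts 39 bp before the summit.
mdl-1: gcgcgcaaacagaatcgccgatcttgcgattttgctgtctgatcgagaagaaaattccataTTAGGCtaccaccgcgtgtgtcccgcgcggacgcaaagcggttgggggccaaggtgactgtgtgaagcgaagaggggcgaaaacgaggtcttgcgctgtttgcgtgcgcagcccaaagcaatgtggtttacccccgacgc

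No CANNTG occurs in that stretch on either strand. Within 50 bp on either side of the summit, CANNTG was present at 0 of the 2 reproducible summits of bHLH genes, against 31.3% of all reproducible summits. In the same span TTAGGC was present at 1 of the 2, against 8.69%. The GC content of the bases within 50 bp of the mdl-1 summit was 58.4%, against a median of 49.5% over the reproducible set.

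Further reproducible peaks surround mdl-1. Within 20 kb of the gene there were 4, a number reached by 2.60% of protein-coding genes. Beside the promoter peak, 1 lay 4653 bp upstream of the 5′ end (signal 174.8, rank 731) and nearer to R03E9.2. Another lay 1678 bp downstream of the 5′ end, just past the end of the gene (signal 166.8, rank 798), and the last lay 8115 bp downstream (signal 116.7, rank 1594). Inside the gene itself a weak pooled summit sat in a coding exon 1025 bp from the 5′ end, with a signal of 30.8 at rank 24737. It had no match in replicate 6.

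The other genes of the network did not reach the reproducible set. The Max-type gene mxl-1, which encodes the dimer partner of MDL-1, had 0 pooled summits in its window, although that list includes background. Its strongest entry in any list was a replicate 7 peak with a signal of 22.5 at rank 15054, and replicate 6 had none. The nearest reproducible summit was 5451 bp from its 5′ end. The Max-type gene mxl-3, known for its part in lipid metabolism, had a pooled summit 331 bp upstream with a signal of 77.2 at rank 3495. Replicate 7 had a matching peak of signal 47.8, rank 1735, and replicate 6 had no summit within 100 bp of it. The strongest replicate 6 summit in that window lay 180 bp upstream with a signal of 39.1 at rank 5375. For mml-1 the strongest pooled summit was 1793 bp upstream, with signals of 53.5 in the pooled list, 30.7 in replicate 6 and 28.8 in replicate 7. For mxl-2, which encodes the partner of MML-1, it was 1516 bp upstream with a pooled signal of 33.4, and it lay nearer to the 5′ end of ubc-20, at 809 bp. Within the network the pooled signal was 889.0 at mdl-1, and the next was 77.2 at mxl-3.

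The sequences within 50 bp of the strongest pooled summits of mxl-3 (chrX:13351085-13351185) and mml-1 (chrIII:7376474-7376574) are shown for comparison with mdl-1, as the plus strand of ce11. Capitals mark a CANNTG match, which at mml-1 is CACGTG, the E-box that Max-type dimers prefer.
mxl-3: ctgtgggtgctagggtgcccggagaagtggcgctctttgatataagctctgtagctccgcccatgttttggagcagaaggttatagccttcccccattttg
mml-1: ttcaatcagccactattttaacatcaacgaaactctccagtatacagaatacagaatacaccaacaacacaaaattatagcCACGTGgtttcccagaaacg

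The CACGTG at mml-1 starts 31 bp after the summit. It was the only one at the 17 bHLH genes with a pooled summit (5.88%), against 2.54% of all pooled summits. A match is a stretch of letters and no measure of binding by a bHLH protein.

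**Figure D1:**
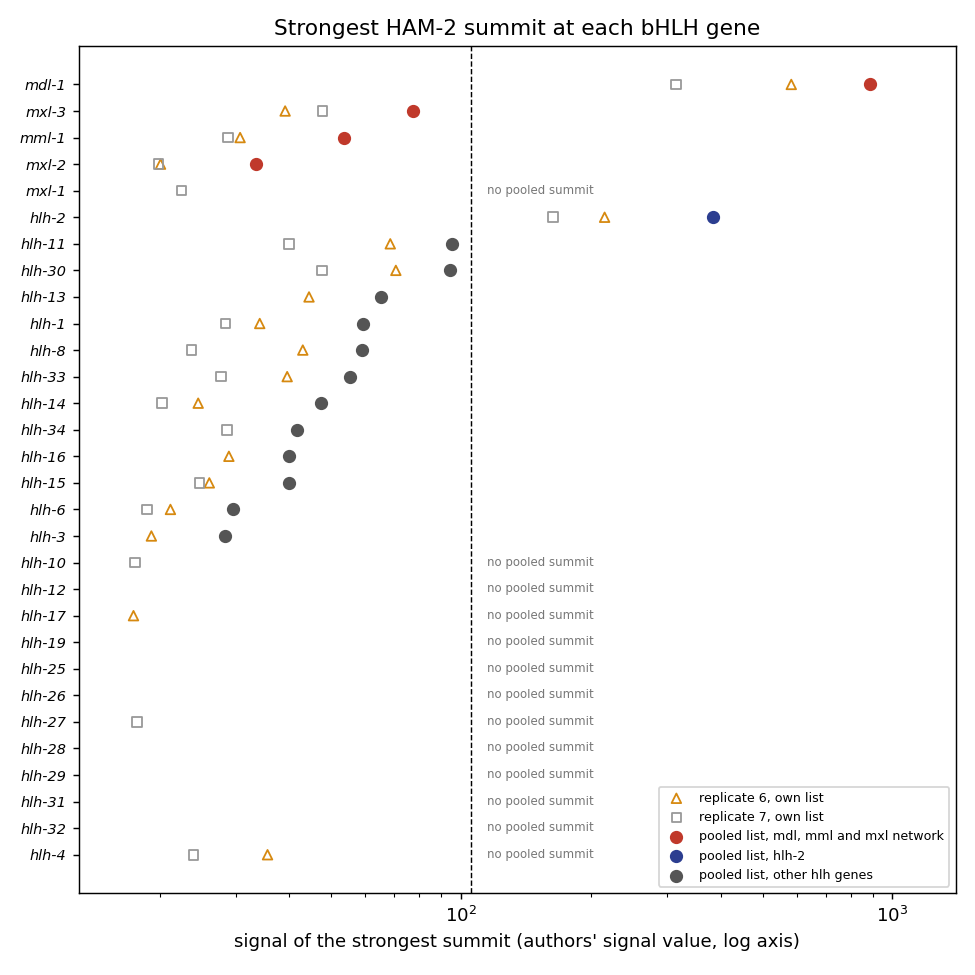
Signal of the strongest summit at each of the 30 bHLH genes on a log axis: filled circles for the pooled list, open triangles for replicate 6 and open squares for replicate 7, each replicate's point being the strongest in its own list. Only mdl-1 (889.0) and hlh-2 (384.2) lie right of the dashed line, the lowest reproducible signal of 105.3, and 13 genes have no pooled summit. The line is on the scale of the pooled signals and is no cutoff for the replicate points.

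The common partner gene hlh-2 (WBGene00001949, chromosome I, 7190788 to 7193920, minus strand) had its reproducible peak from 7194713 to 7194980. The summit was 959 bp upstream of the outermost 5′ end of its 2 annotated transcripts. The signal was 384.2 in the pooled list, 215.1 in replicate 6 (rank 174) and 163.4 in replicate 7 (rank 112). The replicate summits fell 1 and 3 bp from the pooled one. In all, 121 genes had a stronger summit in their window (99.4th percentile for hlh-2). The peak is 268 bp wide, and its summit is in no other protein-coding gene's window. Neither CANNTG nor TTAGGC occurs within 50 bp of it.

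Signal at hlh-2 continued at lower levels beside the main peak. A pooled summit in an intron, 1075 bp downstream of the 5′ end, had a signal of 101.6 at rank 2062, just below the lowest reproducible value of 105.3. The matched replicate peaks were far lower in their lists, with signals of 36.0 in replicate 6 (rank 6385) and 31.3 in replicate 7 (rank 6065). Their summits lay 90 and 91 bp from the pooled one, near the 100 bp limit for a match. Another upstream summit at 1158 bp had a signal of 87.0, and a further intronic one at 314 bp had 33.6. Within 20 kb of hlh-2 there were 3 reproducible peaks, a number reached by 7.35% of protein-coding genes and by 3 of the 30 bHLH genes: mdl-1, hlh-2 and hlh-16. The other two at hlh-2 lay 19711 and 19910 bp upstream, nearest to nhr-23, with signals of 528.5 and 223.6.

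At mdl-1 the ratio of replicate 6 to replicate 7 signal was 1.85, and at hlh-2 it was 1.32. Over 1831 reproducible peaks matched in both replicates the median ratio was 1.63, with 1.05 and 2.63 as the 10th and 90th percentiles. Both genes are inside that range. The scaling of the signal against depth is not stated, so ranks within a list are the safer reading.

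**Figure D2:**
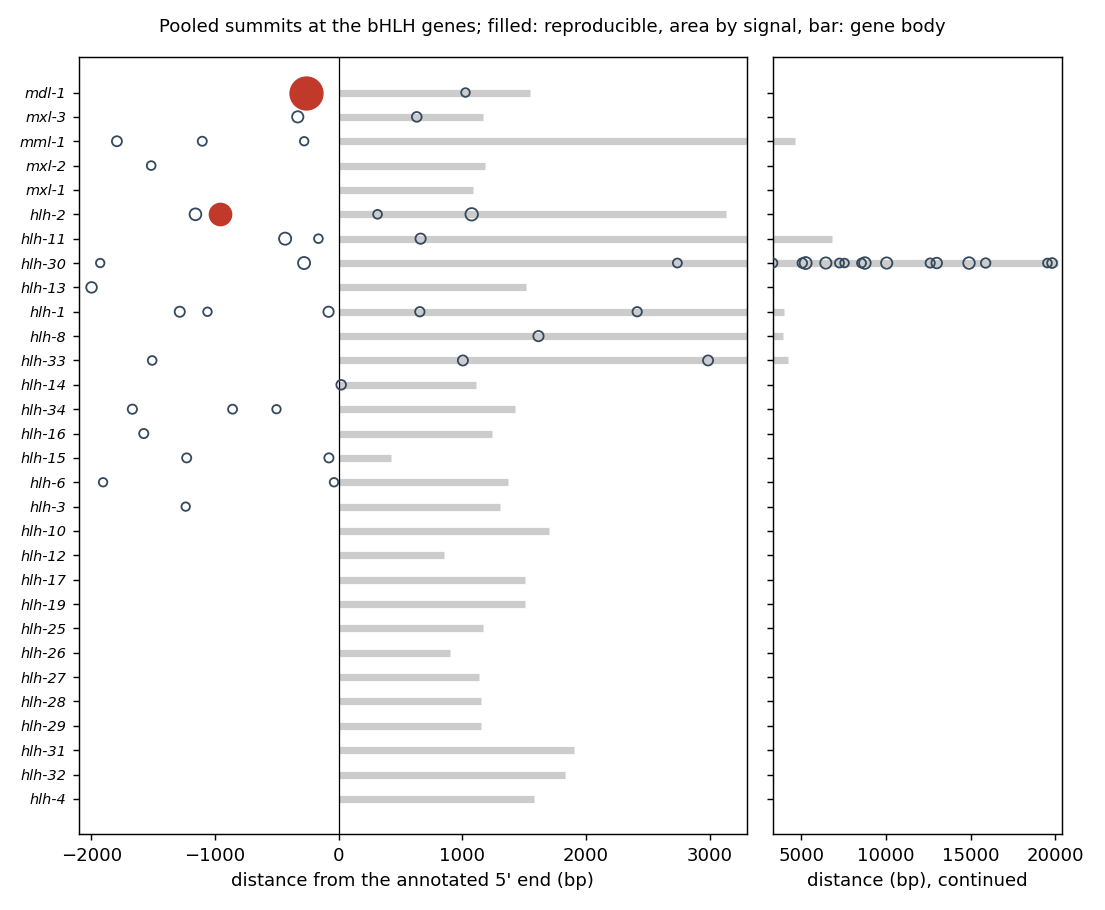
Position of every pooled summit relative to the annotated 5′ end at the 30 bHLH genes, in bp, with grey bars for gene bodies and circle area growing with signal. The right panel goes on for long genes on a compressed scale. The filled circles, the reproducible summits, lie 267 bp upstream at mdl-1 and 959 bp upstream at hlh-2, and hlh-30 holds 18 pooled summits.

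The 24 other hlh genes, most of which act in particular tissues, had 0 reproducible summits, against 9.00% of all protein-coding genes. By window length 12 were short, 7 middle and 5 long, groups in which 5.49%, 6.14% and 15.4% of all genes had one. With so few genes, the 0 is read as no result about this group. Of the 24, 12 (50%) had at least 1 pooled summit, against 64.0% of all protein-coding genes. Their strongest signals ran from 28.3 at hlh-3 to 95.2 at hlh-11. The genes closest to the threshold were hlh-11 and hlh-30. At hlh-11, an AP-4-type factor gene, the summit was 433 bp upstream, with a pooled signal of 95.2 at rank 2345. Its replicate signals were 68.5 (rank 1910) in replicate 6 and 39.9 (rank 2842) in replicate 7. Replicate 6 thus ranks it within its top 1945 and replicate 7 does not.

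The TFEB-type gene hlh-30, a regulator of autophagy and lysosome genes, has the longest window of the group at 22159 bp and 18 pooled summits. The strongest, 280 bp upstream of the 5′ end, had a pooled signal of 94.0 at rank 2397. Its signals were 38.4 in replicate 6 (rank 5560) and 47.6 in replicate 7 (rank 1748). An intronic summit 14897 bp downstream had the highest rank in replicate 6 (signal 70.6, rank 1806), yet replicate 7 had no peak within 100 bp of it. Relative to the nearest start of the gene's 13 annotated transcripts, this intronic summit was at -1010 bp, which is upstream. The 2 libraries place their strongest hlh-30 summit at different sites.

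The muscle and mesoderm genes hlh-1 and hlh-8 lay below that, and so did hlh-13, which is not placed in that class here. The MyoD-type gene hlh-1 had 5 pooled summits, the strongest 82 bp upstream with a signal of 59.2 at rank 6229. Its matched signals were 18.0 in replicate 6 and 23.2 in replicate 7. The Twist-type gene hlh-8 had 1, in an intron 1615 bp downstream of the 5′ end, with 58.8 in the pooled list and 42.9 in replicate 6, and replicate 7 had no match. At hlh-13, a Ptf1-type gene, the summit (signal 65.2) was 1998 bp upstream, at the edge of the window, and only 39 bp from the 5′ end of F48D6.4.

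The achaete-scute-type genes, which act in neurons and glands, reached a pooled signal of 47.3 at most. The gene hlh-3, which acts in the HSN as ham-2 does, had a single pooled summit 1237 bp upstream with a signal of 28.3 at rank 28207, matched in neither replicate. It was the lowest value among the 17 bHLH genes with a pooled summit. At hlh-14, which acts in the neuroblast that gives rise to the HSN, a summit in the 5′ UTR, 20 bp from the 5′ end, had signals of 47.3 in the pooled list, 24.6 in replicate 6 and 20.3 in replicate 7. At hlh-6, a gene of the pharyngeal glands, the strongest was 29.6, 38 bp upstream. The genes hlh-4, of the ADL sensory neurons, and hlh-19 had no pooled summit. At hlh-4 each replicate had 1 peak of its own, 1888 bp upstream in replicate 6 (signal 35.6, rank 6581) and 1222 bp downstream in replicate 7 (signal 24.0, rank 12862), so they do not coincide.

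The remaining genes with a pooled summit were hlh-33 (55.2), hlh-34 (41.7), hlh-16 (39.9) and hlh-15 (39.9). Their ranks ran from 7305 to 15344 of 30000.

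Sequences within 50 bp of the pooled summits of 6 of these genes follow as the plus strand of ce11. They are hlh-11 (chrIII:9619228-9619328) and hlh-30 (chrIV:4035181-4035281), the nearest to the threshold, hlh-8 (chrX:8118022-8118122) and hlh-15 (chrX:2413406-2413506), which hold an E-box, hlh-33 (chrIII:1856346-1856446), which holds repeats, and hlh-14 (chrII:5738825-5738925), which holds a run of GA letters. Capitals mark the E-box CANNTG, the repeat word TTAGGC and the word GAGAGA. The word GAGAGA was added to the search after the sequences had been seen.
hlh-11: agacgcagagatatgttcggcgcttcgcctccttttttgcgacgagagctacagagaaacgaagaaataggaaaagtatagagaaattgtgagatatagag
hlh-30: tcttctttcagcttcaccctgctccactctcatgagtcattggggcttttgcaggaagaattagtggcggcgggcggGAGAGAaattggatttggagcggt
hlh-8: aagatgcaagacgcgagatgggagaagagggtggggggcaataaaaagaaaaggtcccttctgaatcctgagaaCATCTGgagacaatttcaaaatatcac
hlh-15: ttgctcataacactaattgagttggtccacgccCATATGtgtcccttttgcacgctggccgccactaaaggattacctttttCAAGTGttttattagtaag
hlh-33: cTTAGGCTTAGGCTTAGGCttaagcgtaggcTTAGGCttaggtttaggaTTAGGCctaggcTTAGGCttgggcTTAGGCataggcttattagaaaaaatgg
hlh-14: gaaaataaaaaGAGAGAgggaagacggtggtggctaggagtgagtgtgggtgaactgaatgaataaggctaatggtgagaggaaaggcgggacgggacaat

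The intronic hlh-33 summit lies in a run of telomere-type repeats, with 7 copies of TTAGGC within 50 bp of the summit. Its signal was 55.2 in the pooled list. The matched peaks had 39.5 in replicate 6, 53 bp away, and 22.3 in replicate 7 (rank 15345), 100 bp away, at the limit for a match. The strongest replicate 7 summit in the hlh-33 window lay elsewhere, 3054 bp downstream of the 5′ end (signal 27.8, rank 8659). Over the pooled summits TTAGGC was present at 2 of 17 bHLH genes, mdl-1 and hlh-33, against 5.70% of all pooled summits. CANNTG was present at 3 of 17 (17.6%), namely mml-1, hlh-8 and hlh-15, against 35.7% of all pooled summits. GAGAGA was present at 3 of 17, namely hlh-30, hlh-14 and hlh-3, against 9.89% of pooled summits. Because the word was chosen after these sequences had been seen, that share is no result about these genes. Within 25 bp on either side it was present at 0 of 17, against 5.21% of pooled summits. At the reproducible summits it was present within 50 bp at 0 of 2, against 25.1%.

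**Figure D3:**
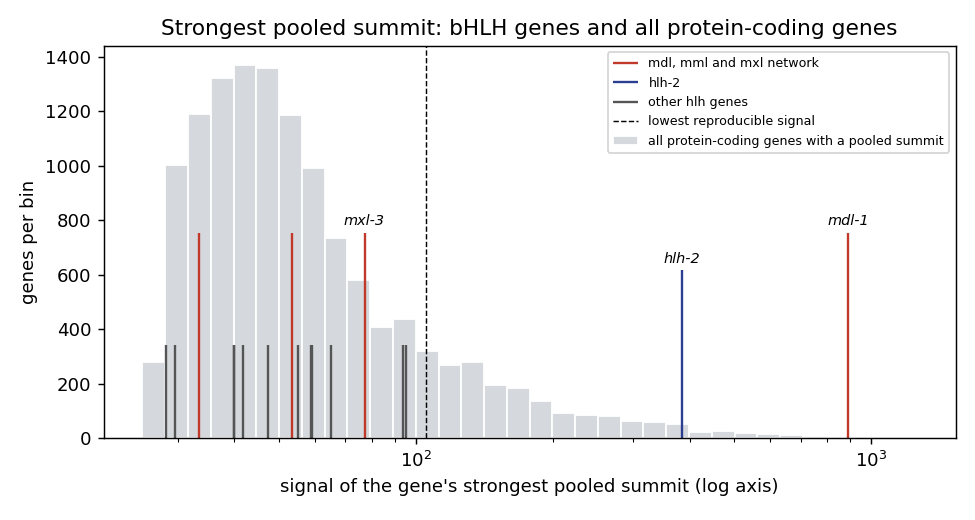
Histogram of the strongest pooled signal of each protein-coding gene with a pooled summit (grey, log axis), with vertical lines of arbitrary height at the values of 17 bHLH genes and a dashed line at 105.3. Apart from mdl-1 and hlh-2 the bHLH genes fall within the bulk of the distribution, from 28.3 to 95.2.

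Over the 17 bHLH genes with a pooled summit the median strongest signal was 55.2, against 49.5 over all 12784 protein-coding genes with one. A pooled summit was present at 17 of 30 bHLH genes (56.7%), against 64.0% of all genes. The strongest summit was upstream of the gene at 14 of the 17, against 53.9% of all genes with one. The upstream part is 2000 bp in every window, and the bHLH genes are short, so these shares are not matched for length. At 15 of the 17 the strongest summit was nearest to the gene's own 5′ end. The strongest summit was matched within 100 bp in both replicates at 10 of the 17, against 44.3%. A further 3 were matched in replicate 6 only, 3 in replicate 7 only and 1 in neither. The shares of all genes for these further counts were not computed, so they are read as no result. Only mdl-1 and hlh-2 had their summit in the top 1945 of both replicates.

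The bHLH genes are short, and a longer window can hold more summits. Their median window was 3467 bp, against 4027 bp for all protein-coding genes. All genes were placed in 3 groups of about equal size by window length. Of the 15 bHLH genes with windows up to 3458 bp, 0 had a reproducible summit, against 5.49% of all genes of that length. The middle group held 8 with 1 such summit (mdl-1), against 6.14%, and the longest held 7 with 1 (hlh-2), against 15.4%. For pooled summits the counts were 8 of 15 against 51.2%, 2 of 8 against 60.9%, and 7 of 7 against 80.0%. Per 100 kb of window the members held 1.52 reproducible summits, against 1.89 over all protein-coding windows, and 40.2 pooled summits, against 31.2. The pooled figure leans on 1 gene: of the 53 pooled summits, 18 lay at hlh-30, whose window is 22159 of 131806 bp. It is therefore no result about the members as a group. From the 5′ end to the nearest reproducible summit the median distance was 18384 bp for the bHLH genes, against 23150 bp for all genes.

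**Figure D4:**
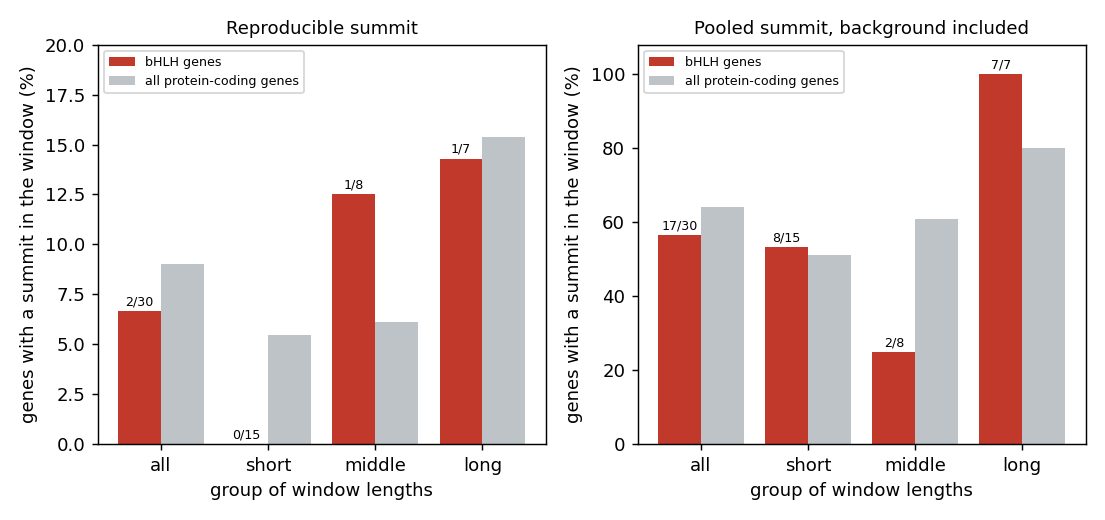
Share of genes with a summit in their window, in percent, for bHLH genes (red, left bar, with counts above) and all protein-coding genes (grey, right bar), overall and by window length. Overall the reproducible share was 6.67% of bHLH genes and 9.00% of all genes, and no bHLH gene in the group of short windows had a reproducible summit.

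The 13 bHLH genes with no pooled summit were mxl-1, hlh-4, hlh-10, hlh-12, hlh-17, hlh-19, hlh-25, hlh-26, hlh-27, hlh-28, hlh-29, hlh-31 and hlh-32. Of these, 8 had no summit in any list: hlh-12, hlh-19, hlh-25, hlh-26, hlh-28, hlh-29, hlh-31 and hlh-32. The share of all protein-coding genes with no summit in any list was not computed, so that count is read as no result about the members. The 13 include the 5 genes of the REF-1 family among the members (hlh-25 to hlh-29), which encode proteins with paired bHLH domains. They also include 3 Olig-type genes, hlh-17, hlh-31 and hlh-32. Copies of some of these genes are alike in sequence. Of the 31-base words in the gene, 8.94% occur once in the nuclear genome for hlh-28 and for hlh-29, 26.8% for hlh-27 and 28.6% for hlh-25, against 100% for mdl-1 and hlh-2. Over the whole window the share was 34.8% for hlh-28 and hlh-29, 66.8% for hlh-27 and 67.1% for hlh-25. It was 77.6% for hlh-26 and 88.8% for hlh-17. How reads of repeated sequence were handled is not stated in the sources at hand. The lack of pooled summits at these genes is therefore uncertain, most of all at hlh-28 and hlh-29. The windows of hlh-10, hlh-12 and hlh-4 are unique throughout, and those of hlh-31 and hlh-32 are at 95.5% and 98.9%. The part of sequence uniqueness in these counts was not tested.

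Of 13 other genes of the pathway, 11 bHLH genes outside the naming rule and the Mad corepressor genes sin-3 and hda-1, 2 (15.4%) had a reproducible summit, against 9.00% of all protein-coding genes. By window length, 2 of the 8 with long windows had one, against 15.4% of all genes with long windows. The share over all 13 genes has the same value, but it includes shorter windows and is not the matching comparison. Of the others, 0 of 3 with middle and 0 of 2 with short windows had one. With so few genes, the count is read as no result about the list. Both genes with a reproducible summit encode bHLH-PAS proteins. At cky-1 (chromosome V, 12736703 to 12741205, plus strand) the summit was 212 bp upstream, with a signal of 124.7 at pooled rank 1421, 76.9 in replicate 6 and 53.8 in replicate 7. At aha-1, the worm ARNT gene and general partner of bHLH-PAS proteins, it was 373 bp upstream with a signal of 115.6 at pooled rank 1625. That summit is 49 bp from the 5′ end of C25A1.15 and so nearer to it. Its signals were 60.9 in replicate 6 and 51.6 in replicate 7. The next was hda-1, a histone deacetylase gene, with a pooled signal of 101.3, nearer to ril-1. The neuronal genes lin-32 (48.2), cnd-1 (58.6) and ngn-1 (51.05) had pooled summits only, as did lin-22 (76.6), ref-1 (61.3), sin-3 (54.3), sbp-1 (41.0), hnd-1 (38.0) and hif-1 (37.9). At ahr-1, whose product pairs with AHA-1, there was none. As the partner gene of the PAS branch, aha-1 had a signal of 115.6, and hlh-2 had 384.2.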

How the data were processed

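Members and lists were chosen with earlier results of these data known. Per the deposited listing, the authors called peaks with background on each replicate and on both pooled, against a control alignment not analysed here, and kept those passing their irreproducible discovery rate threshold. Coordinates are those of ce11, which the labels name. The sources at hand name no aligner, peak caller, version or depth, so no interval is given. Peaks were ranked within each list by the authors' deposited signal value. The lists hold 28424 peaks (replicate 6, of which 10 mitochondrial ones were left out), 30000 (replicate 7), 30000 (pooled) and 1945 (reproducible). Genes came from Ensembl release 115 (WBcel235, the same assembly), sequence from RefSeq's WBcel235. A summit is the start plus the peak offset, written 1-based. Summits within 100 bp were matched between lists. Words were searched on both strands. Members with a reproducible summit are given in full and, of the others, the 5 highest and 3 lowest with values; further values are given by role. The window functions were tested on simulated data. Python 3.11.15, numpy 2.4.6 and pandas 2.3.3 were used.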

Additional observations from a re-analysis of the deposited data

How the results depend on the processing

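Counts of genes with a summit are given below as members, network genes, other hlh genes and the 13 further pathway genes, with the share of all protein-coding genes after them; the values as reported are 2, 1, 0 and 2 with 9.00%. From 1000 bp upstream to 200 bp downstream of the 5′ end they were 2, 1, 0 and 2 with 4.60%. From 500 to 100 bp they were 1 (mdl-1), 1, 0 and 2 with 3.24%, and from 2000 to 500 bp 2, 1, 0 and 2 with 6.89%. In the gene body alone all 4 counts were 0 with 3.04%. From 5000 bp upstream they were 4 (hlh-6 and hlh-27 added), 1, 2 and 2 with 13.2%. Counting a summit only for its nearest 5′ end gave 2, 1, 0 and 1 with 6.20%. The upper 50% of peaks by signal gave 2, 1, 0 and 0 with 4.74%, and the 3890 strongest pooled peaks gave 5 (mxl-3, hlh-11 and hlh-30 added), 2, 2 and 4 with 15.9%. Without peaks near short noncoding genes they were 2, 1, 0 and 2 with 7.86%, and with peaks in the top lists of both replicates 2, 1, 0 and 1 with 5.65%. The top 1945 of 1 replicate alone gave 4 members either way, 1 to 2 network genes, 1 to 2 other hlh genes and 1 to 2 further genes, with 8.72% to 9.11%. Without replicate 6 the members added were mxl-3 and hlh-30, and without replicate 7 they were hlh-11 and hlh-30. The mdl-1 summit was counted under every alternative except the gene body, and hlh-2 under every one except the gene body and the 500 bp window. Strongest summits matched in both replicates numbered 6 of 17 within 50 bp, 12 within 200 bp and 13 by any overlap, against 10 as reported. The share of all genes was computed only for 100 bp (44.3%), so the other counts are read as no result about the members. CANNTG was present at 1 of 17 pooled summits within 25 bp on either side, against 19.7% of all pooled summits. Within 100 bp it was present at 9 of 17, against 57.3%, and within 50 bp, as reported, at 3, against 35.7%. It was present at 0 of the 2 reproducible summits under each width. The shares of all reproducible summits were 16.5%, 31.3% and 51.3% within 25, 50 and 100 bp. The gene lists were short, so 1 gene moves a count by much. No paired analysis was possible because there is 1 group. No measure of depth is at hand.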
